A study of Homo sapiens with 12 samples.

Results

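The 10 genes described here make and recycle pyrimidine nucleotides, and they were followed on loss of mitochondrial DNA (mtDNA) in 2 human cell lines. They were chosen by name, as the enzymes of pyrimidine synthesis and salvage, and 9 of the 10 are among the 11963 genes with a probe set of their own on the array, while UCK2 shares its probe set. The ρ° cells of A549, a lung adenocarcinoma line of epithelial origin, and of 143BTK-, an osteosarcoma line that is thymidine kinase deficient, had lost their mtDNA after 3 weeks in 50 ng/ml ethidium bromide. They were compared with the ρ+ cells of the same line, the parental, undepleted cells. The growth medium of all 4 groups held 50 µg/ml uridine, a source of pyrimidines outside the synthesis route, along with 10% serum and 1 mM pyruvate, and the ρ° cells were kept as mixed populations rather than single clones. RNA of 3 biological replicates of each group was hybridised to HG-U133A arrays, which read 22283 probe sets. The signal of a probe set is on a linear scale and was normalized within a line, so that levels are not on the same scale between the lines.

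Pyrimidine nucleotides come from a synthesis route and from a salvage route. In synthesis, CAD joins the first steps in a single cytosolic protein, DHODH in the inner mitochondrial membrane oxidises dihydroorotate and hands the electrons to ubiquinone, and UMPS completes UMP. Because DHODH needs a respiratory chain that takes up its electrons, ρ° cells depend on uridine from the medium. In salvage, UCK2 phosphorylates uridine and cytidine, and UPP1 splits uridine into uracil and a sugar phosphate. For DNA, TYMS makes dTMP from dUMP, TK1 makes it from thymidine in the cytosol and TK2 in mitochondria, DTYMK phosphorylates dTMP to dTDP, and DCK phosphorylates deoxycytidine. TK1 is best known as an enzyme whose level follows S phase, and it is the activity that 143BTK- lacks.

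TK1, DTYMK and UPP1 were the members that passed the test in A549, and each was lower in ρ° cells. The 250 bases before their start of transcription are shown because the 3 genes fell together, with CCAAT boxes (CCAAT) and GC boxes (GGGCGG) in capitals on either strand. The sequences are from RefSeq (GRCh38.p14), at the start furthest along the gene where several are listed. They lie at chr17:78187053-78187302 on the minus strand for TK1, at chr2:241686816-241687065 on the minus strand for DTYMK and at chr7:48089015-48089264 on the plus strand for UPP1. The window of UPP1 thus lies within the annotated gene, as does the part of the TK1 window that holds its CCAAT boxes, while that of DTYMK lies before the gene.
TK1: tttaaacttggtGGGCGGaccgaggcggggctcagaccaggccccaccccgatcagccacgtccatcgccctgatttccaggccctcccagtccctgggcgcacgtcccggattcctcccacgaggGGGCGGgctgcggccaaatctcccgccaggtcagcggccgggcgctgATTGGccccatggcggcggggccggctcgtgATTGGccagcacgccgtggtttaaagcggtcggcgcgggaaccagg
DTYMK: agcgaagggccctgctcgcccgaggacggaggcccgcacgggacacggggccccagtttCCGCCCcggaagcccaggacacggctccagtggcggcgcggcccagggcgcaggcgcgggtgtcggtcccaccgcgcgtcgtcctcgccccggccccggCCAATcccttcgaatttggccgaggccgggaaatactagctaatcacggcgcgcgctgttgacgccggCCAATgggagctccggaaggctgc
UPP1: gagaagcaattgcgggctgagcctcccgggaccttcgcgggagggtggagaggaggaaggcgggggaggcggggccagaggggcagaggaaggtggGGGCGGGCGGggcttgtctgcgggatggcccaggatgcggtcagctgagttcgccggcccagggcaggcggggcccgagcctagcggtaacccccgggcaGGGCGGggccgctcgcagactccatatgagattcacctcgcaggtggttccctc
TK1 and DTYMK each held a pair of CCAAT boxes, those of TK1 beginning 77 and 46 bases before the start and those of DTYMK 92 and 24 bases before it, and UPP1 held none. At least 2 CCAAT boxes stood in 9.77% of the 27326 promoters searched and in 2 of the 10 members, and at least 1 stood in 32.7% of the promoters and in 5 members. GC boxes, of which 2 overlap in UPP1, were in 41.3% of the promoters and in 7 members. The letters of E2F sites (TTTGGCGC, TTTCCCGC, TTTCGCGC or TTTGCCGC) were in 2.73% of the promoters and, among the members, in TYMS. An E box (CACGTG) was in 6.25% of the promoters and in DHODH and DCK, and the amino acid response element (TGATGNAA) was in 3.3% of the promoters and in no member. These are matches of letters in a fixed window and not measured binding sites.

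Before the results, the arrays of 143BTK- did not fall into groups by mtDNA state. Over all probe sets, Pearson's r of log2 signals was 0.915 to 0.952 within the groups of A549 and 0.87 to 0.908 between them, but 0.899 to 0.964 within and 0.886 to 0.944 between those of 143BTK-. Each 143BTK- ρ° array correlated best with a ρ+ array, which was ρ+ array B for ρ° array A (0.944), ρ+ array C for ρ° array B (0.92) and ρ+ array A for ρ° array C (0.939). The ρ+ array C itself correlated best with ρ+ array B (0.93). Whether the labels of these arrays hold, or whether they share a batch, was not tested, and this bears on every value given for 143BTK-.

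Of the 8 epithelial markers, 6 were tested in A549, of which 4 fell in ρ° cells, which were, as changes in log2 signal of ρ° minus ρ+ cells, KRT18 (-1.36), KRT8 (-1.15), CDH1 (-1.13) and KRT19 (-6.96), with adjusted p of 1.22e-05 to 0.0335 in limma. KRT18 averaged 3350 in A549 ρ° and 8230 in A549 ρ+ cells, KRT8 1450 in ρ° and 3210 in ρ+ cells, and KRT19 3.53 in ρ° and 409 in ρ+ cells. The calls of KRT18 and KRT19 were kept in all 6 fits without 1 array, that of KRT8 in 2 and that of CDH1 in 1. KRT18 (-0.89, adjusted p = 0.0169) and KRT8 (-0.92, adjusted p = 0.0491) fell in the change averaged over the lines too. These calls were kept in 11 of 12 fits without 1 array for KRT18 and in 4 of 12 for KRT8. KRT7 (0.41, adjusted p = 0.327) and DSP (0.55, adjusted p = 0.261) were higher there without passing. In A549 DSP was higher as well (0.46, adjusted p = 0.302) and KRT7 lower (-0.46, adjusted p = 0.119), neither passing in limma. In 143BTK- KRT7 was higher (1.28, adjusted p = 0.556). The summed signal of the 8 was 5230 to 8890 on the A549 ρ° arrays, against 13000 to 15500 on the A549 ρ+ arrays, and EPCAM and CLDN4 stood in A549 on average no higher than percentile 21.2 and 35.2 of an array. This fall moved with those of the members in A549, and its part in them was not tested. The markers separate the lines in part. SPARC was bright in 143BTK-, at percentile 95.8 in ρ° and 94.7 in ρ+ cells, but VIM was also bright in A549 (99.2 in ρ° and 98.9 in ρ+ cells), KRT18 was also bright in 143BTK- (99.1 for ρ° and 99.3 for ρ+), and FN1 stood higher in A549 (98.6 for ρ° and ρ+) than in 143BTK- (84 for ρ° and 88.3 for ρ+). The bone genes RUNX2 and ALPL stood in 143BTK- no higher than percentile 28.3 and 36.5. COL5A1 of the same list fell in A549 (-1.27, adjusted p = 0.0473 in limma), a call kept in 1 of 6 fits without 1 array, and on its probe set 203325_s_at (-1.59, adjusted p = 0.0133), kept in 5 of 6. PTPRC, the marker of white blood cells, did not exceed 9.2 on any array, but other blood cell markers were brighter. CD14 averaged 38.7 in A549 ρ° and 59.9 in A549 ρ+ cells, against 1.73 in 143BTK- ρ° and 2.93 in 143BTK- ρ+ cells. HBB averaged from 26.6 in 143BTK- ρ+ to 37.9 in A549 ρ+ cells, and CD3D reached 35 on an A549 ρ+ array.

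The 10 members had 16 probe sets of their own for 9 genes, and the single probe set of UCK2 is listed also for MIR3658, a microRNA gene inside it, so that it is given apart. Probe sets were tested when they were among the 59% with the highest mean log2 signal in A549 or the 63% in 143BTK-, which kept 13 of the 16 in each line and at least 1 for each of the 9 genes. Changes are log2 signal of ρ° minus ρ+ cells and were tested with limma, with Benjamini-Hochberg adjustment over all probe sets kept and a threshold of 0.05. In A549, 3 of the 13 fell and 0 rose, where over all 13147 probe sets 10.8% passed, 5.17% lower and 5.59% higher. At an unadjusted p under 0.05, 6 of the 13 were lower, against 13.3% of all probe sets. In 143BTK-, 0 of the 13 passed, and 0% of all 14038 probe sets did. At an unadjusted p under 0.05, 3 of the 13, which were TK1, UPP1 and DCK, were lower there, against 4.6% of all probe sets. In the change averaged over the lines, called the mean change, 2 of the 12 member probe sets kept in both fell, which were TK1 and UPP1, where 1.72% of all 12184 probe sets passed lower in ρ° cells. For the difference between the lines, 0 of the 12 passed, where 1.91% of all probe sets did, and DTYMK had an unadjusted p under 0.05. With 1 probe set for a gene, all 9 genes had a change below 0 in A549 with a median of -0.64, among them CAD at only -0.0052. In 143BTK- 5 of 9 were below 0, with a median of -0.13. Of all probe sets, 50.3% were below 0 in each line, and their medians were -0.0035 in A549 and -0.0022 in 143BTK-.

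**Figure D1:**
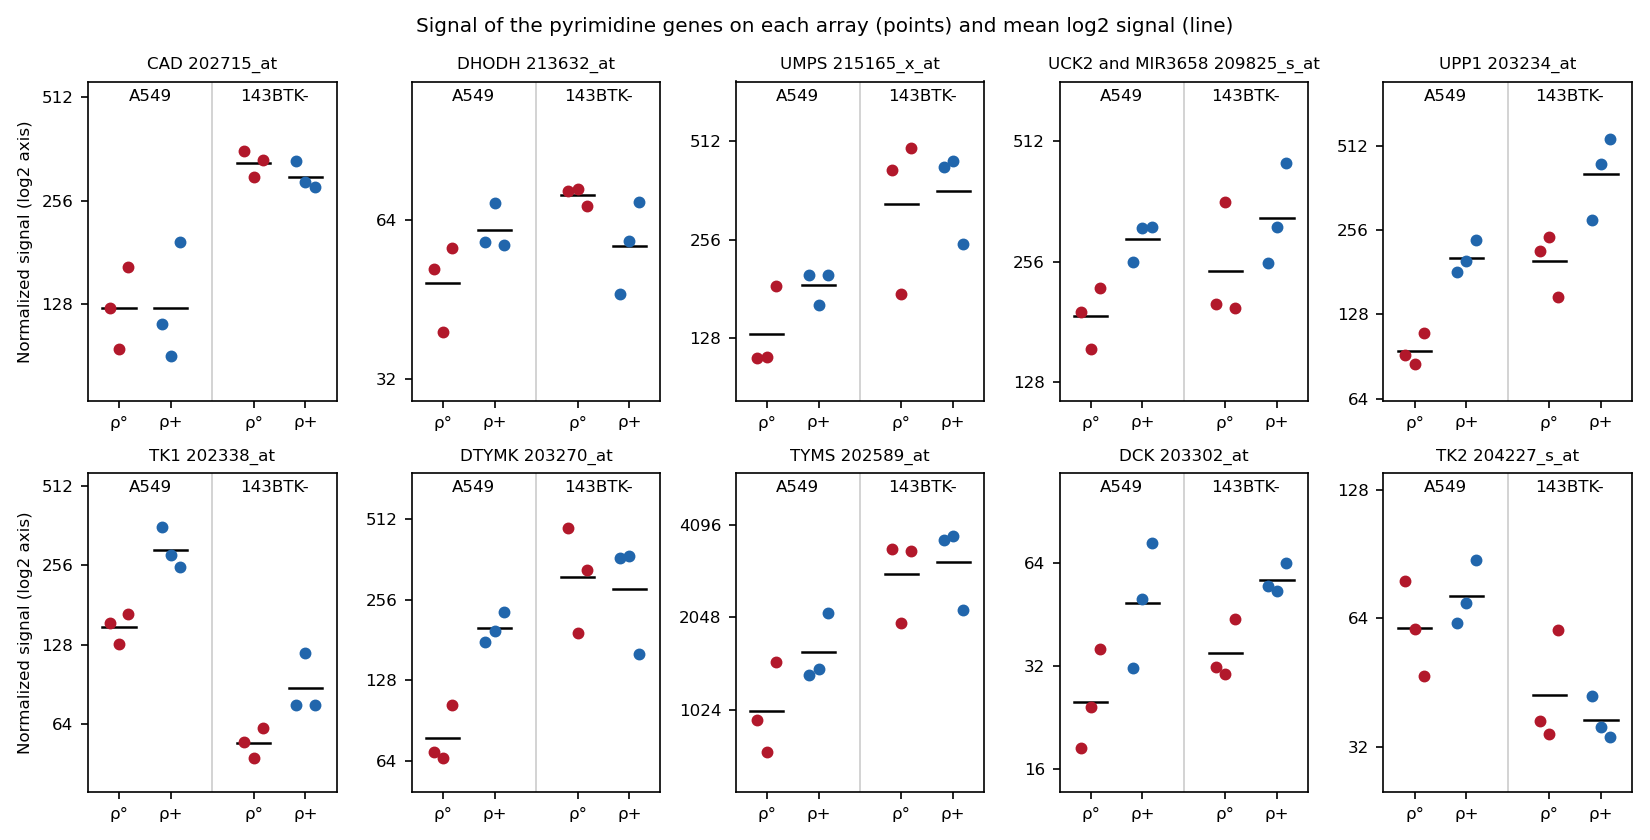
Normalized signal (log2 axis) of the 10 genes on each array, in ρ° (red) and ρ+ cells (blue) of A549 and 143BTK-, with points for arrays A to C from left to right and lines for the mean log2 signal; for genes with several probe sets the brightest is drawn. The A549 ρ° arrays lie below all A549 ρ+ arrays for DHODH, the probe set of UCK2, UPP1, TK1 and DTYMK, and the 143BTK- ρ° arrays lie below all 143BTK- ρ+ arrays for UPP1, TK1 and DCK.

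Among the enzymes of synthesis, CAD (probe set 202715_at) did not pass the test in either line. Its signals were 124.2, 94.2 and 163.2 on the A549 ρ° arrays A to C, against 111.3, 89.8 and 193.1 on the A549 ρ+ arrays. The groups overlapped, with the C array the highest of either group, and the change was -0.0052 (SE 0.32, adjusted p = 0.995). In 143BTK- the signals were 356.2, 299.5 and 337 in ρ° cells, against 334.1, 290.1 and 280.8 in ρ+ cells. This was a change of 0.13 with a 95% interval of -0.33 to 0.60 (adjusted p = 0.891).

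DHODH, the respiratory chain-linked step, did not pass the test in either line. Probe set 213632_at read 51.7, 39.2 and 56.7 in A549 ρ° cells, against 58.2, 69.2 and 57.4 in A549 ρ+ cells. All 3 A549 ρ° arrays lay below the ρ+ arrays, with a change of -0.34 (SE 0.26, adjusted p = 0.447). In 143BTK- it read 72.7, 73.5 and 68.2 in ρ° cells, against 46.3, 58.5 and 69.5 in ρ+ cells, with a change of 0.32 (SE 0.26, adjusted p = 0.786). The directions were opposite, and the difference of the changes between the lines was not past the threshold (-0.65, SE 0.36, adjusted p = 0.381). The dimmer probe set 213631_x_at read between 17.6 and 23 in A549 ρ° cells and between 14.9 and 27.7 in A549 ρ+ cells, with overlapping groups. In 143BTK- it lay lower on all ρ° arrays, at 12.3 to 16.4 against 16.7 to 19.7 in ρ+ cells, with a change of -0.26 (adjusted p = 0.878), opposite to that of 213632_at. The remaining DHODH probe set was too dim to be tested. DHODH lies on chromosome 16, where the median change of the 519 probe sets kept in A549 was -0.33, against -0.02 for the 546 kept in 143BTK-. After centring each array on the median of the chromosome, the A549 change of 213632_at was -0.064 (adjusted p = 0.909).

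UMPS was lower in A549 ρ° cells on its bright probe sets without passing the adjusted test. Probe set 202706_s_at read 133.4, 122.8 and 152.2 in A549 ρ° cells, against 172.7, 187.9 and 202.5 in A549 ρ+ cells. The groups did not overlap, and the change was -0.47 (SE 0.20, unadjusted p = 0.0419, adjusted p = 0.166 with limma). The probe set 215165_x_at gave a similar change of -0.50 (SE 0.25, adjusted p = 0.231), with ρ° array C at 184.3 above ρ+ array B at 161.1. In 143BTK- its change was -0.14 (adjusted p = 0.953), opposite in sign to that of the other bright probe set. There 202706_s_at read 397.2, 205.3 and 425.7 in ρ° cells, against 318.4, 372.2 and 195.7 in ρ+ cells. The ρ° array B and the ρ+ array C were the low ones, and the change was 0.19 with an interval of -0.60 to 0.98. Across all probe sets, ρ+ array C was the array with which ρ° array B correlated best. The dim 202707_at, tested in 143BTK- and not in A549, changed by -0.26 (adjusted p = 0.894).

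In uridine salvage, UPP1, the uridine phosphorylase, was about 2-fold lower in ρ° cells of both lines. Its probe set 203234_at read 91.4, 84.7 and 109.7 in A549 ρ° cells, against 181, 199 and 236.4 in A549 ρ+ cells. The highest A549 ρ° array was well below the lowest ρ+ array, with a mean of 95.3 ± 12.9 for ρ° against 205 ± 28.3 for ρ+ (SD, n = 3 each). The change was -1.11 (SE 0.22, 2.16-fold lower, adjusted p = 0.0116 with limma). In 143BTK- it read 216.5, 242.5 and 147.8 in ρ° cells, against 279.3, 441 and 544.5 in ρ+ cells, again without overlap. The change there was -1.04 (SE 0.31, 2.05-fold lower, unadjusted p = 0.00836), which did not pass after adjustment (adjusted p = 0.487 with limma). The mean change was -1.07 (SE 0.19, adjusted p = 0.0121 with limma), lower on 6 of 6 ρ° arrays, and the exact permutation p of 0.005 is the smallest that the 400 arrangements within lines can give. The difference of the changes between the lines was -0.07 with a 95% interval of -0.89 to 0.75. The mean change of UPP1 passed in all 12 fits that left out 1 array (adjusted p = 0.00754 to 0.0407). The A549 call was lost without ρ° array A (adjusted p = 0.0584) and without ρ+ array B (adjusted p = 0.0509). UPP1 lies on chromosome 7, where the median change of the 506 probe sets kept in A549 was -0.28, and after centring on the chromosome the A549 change was -0.70 and no longer passed (adjusted p = 0.0745). The part of the chromosome in the change was not tested further, and the mean change passed after the same centring (-0.92, adjusted p = 0.024).

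The probe set 209825_s_at, listed for UCK2 and MIR3658, was lower in A549 ρ° cells on every array but short of the threshold. UCK2 is a kinase that traps uridine in the cell. The probe set read 191.3, 155 and 219.6 in A549 ρ° cells, against 256.1, 311.6 and 312.7 in A549 ρ+ cells, with a change of -0.65 (SE 0.21, adjusted p = 0.0742). In 143BTK- it read 200.5, 360.9 and 196 in ρ° cells, against 253.7, 312.4 and 451.5 in ρ+ cells. Here ρ° array B and ρ+ array C were the highest of their groups, and the change was -0.45 (SE 0.32, adjusted p = 0.747). The mean change was -0.55 (SE 0.20, adjusted p = 0.133, exact permutation p = 0.03). The exact permutation p was 0.075 without 143BTK- ρ° array A, ρ° array C or ρ+ array C and 0.055 without 143BTK- ρ+ array B, and the A549 change passed when only probe sets with a mean signal of at least 100 were tested (adjusted p = 0.0452).

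In thymidine salvage, TK1 fell 1.96-fold in A549 ρ° cells, and it was lower on every ρ° array of 143BTK- as well. Its probe set 202338_at read 154.3, 129.1 and 167.8 in A549 ρ° cells, against 357.7, 279.7 and 252.4 in A549 ρ+ cells. The groups did not overlap, with a mean of 150 ± 19.6 for ρ° against 297 ± 54.6 for ρ+ (SD, n = 3 each), and the change was -0.97 (SE 0.21, adjusted p = 0.0196 with limma). In 143BTK-, the thymidine kinase deficient line, the probe set was bright enough to be tested, at 54.6, 47.7 and 61.9 in ρ° cells, against 75.5, 118.8 and 75.5 in ρ+ cells. All ρ° arrays were lower there too, with a mean of 54.7 ± 7.1 for ρ° against 89.9 ± 25 for ρ+ (SD, n = 3 each) and a change of -0.69 (SE 0.29, unadjusted p = 0.0383, adjusted p = 0.58 with limma). The mean change was -0.83 (SE 0.18, 1.78-fold lower, adjusted p = 0.0216 with limma), and the exact permutation p was 0.005, the smallest possible. The difference between the lines was -0.28 with a 95% interval of -1.04 to 0.48.

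As levels are not on the same scale in the lines, TK1 was also placed among all probe sets of the same array. It was brighter than 78.7 to 82.9% of probe sets on the A549 ρ° arrays and than 88.2 to 91.6% on the A549 ρ+ arrays. In 143BTK- it was brighter than 59.9 to 64.6% on the ρ° arrays and than 68.3 to 76.5% on the ρ+ arrays, so that every A549 array was above every 143BTK- array. The array reads the 3′ part of the transcript, and a signal there does not show that a working enzyme is made. The A549 call of TK1 was lost without ρ° array A (adjusted p = 0.0729), ρ° array B (0.0795), ρ+ array A (0.0624) or ρ+ array B (0.069), and without the intensity trend (0.0504). The mean change passed in 7 of 12 fits that left out 1 array. It was lost without A549 ρ° array A (adjusted p = 0.0598) or B (0.0648), A549 ρ+ array A (0.054) or B (0.0573), or 143BTK- ρ+ array B (0.0627), with changes of -0.89 to -0.72 over the 12 fits.

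**Figure D2:**
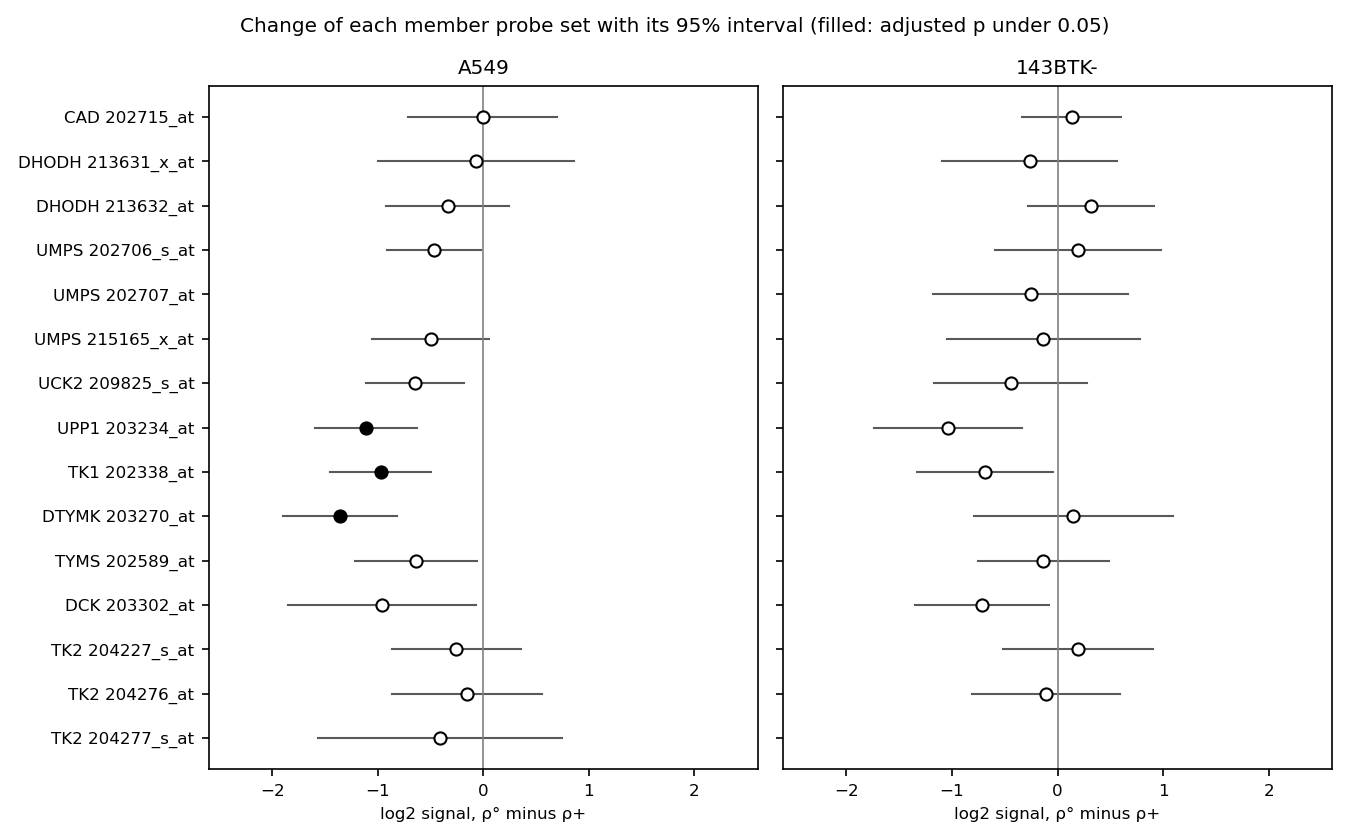
Change in log2 signal, ρ° minus ρ+, of each tested probe set of the members in A549 (left) and 143BTK- (right), with the 95% interval of limma as a line and a filled point where the adjusted p was under 0.05. The filled points are UPP1 (-1.11), TK1 (-0.97) and DTYMK (-1.36) in A549, and no point is filled in 143BTK-.

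DTYMK, the kinase that both routes to dTTP share, had the largest change of the tested member probe sets in A549 and none of that direction in 143BTK-. Its probe set 203270_at read 69.3, 65.9 and 103.8 in A549 ρ° cells, against 178.6, 195.6 and 230.9 in A549 ρ+ cells. The ρ° arrays were all lower, with a mean of 79.7 ± 21 for ρ° against 202 ± 26.7 for ρ+ (SD, n = 3 each). The change was -1.36 (SE 0.24, 2.57-fold lower, adjusted p = 0.00805 with limma), and it passed in all 6 fits without 1 array (adjusted p = 0.00666 to 0.0476) and in all 10 other settings. In 143BTK- it read 475.9, 192.2 and 331 in ρ° cells, against 367.4, 373.2 and 161.2 in ρ+ cells. The groups overlapped fully there, with a change of 0.15 and a 95% interval of -0.79 to 1.09 (adjusted p = 0.947). The difference between the lines was -1.51 (SE 0.51, unadjusted p = 0.0102) and did not pass after adjustment (adjusted p = 0.142), nor did the mean change (-0.61, adjusted p = 0.198, exact permutation p = 0.15). Without the 143BTK- ρ° array B and ρ+ array C, the difference was -1.46 (adjusted p = 0.0678).

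TYMS, which makes dTMP from dUMP, had a lower mean in A549 ρ° cells but did not pass the test. It read 949.9, 743.8 and 1467.9 in A549 ρ° cells, against 1332.2, 1393.7 and 2122.7 in A549 ρ+ cells. The ρ° array C overlapped the ρ+ arrays, and the C array was the highest of both groups, with a change of -0.64 (SE 0.26, unadjusted p = 0.0327, adjusted p = 0.144 with limma). Without the ρ° array C the change was -0.91 and passed (adjusted p = 0.0417). In 143BTK- TYMS read 3420, 1967.5 and 3370.6 in ρ° cells, against 3652.3, 3786 and 2163.3 in ρ+ cells, with a change of -0.13 (interval -0.75 to 0.48). Another TYMS probe set was too dim to be tested in either line.

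**Figure D3:**
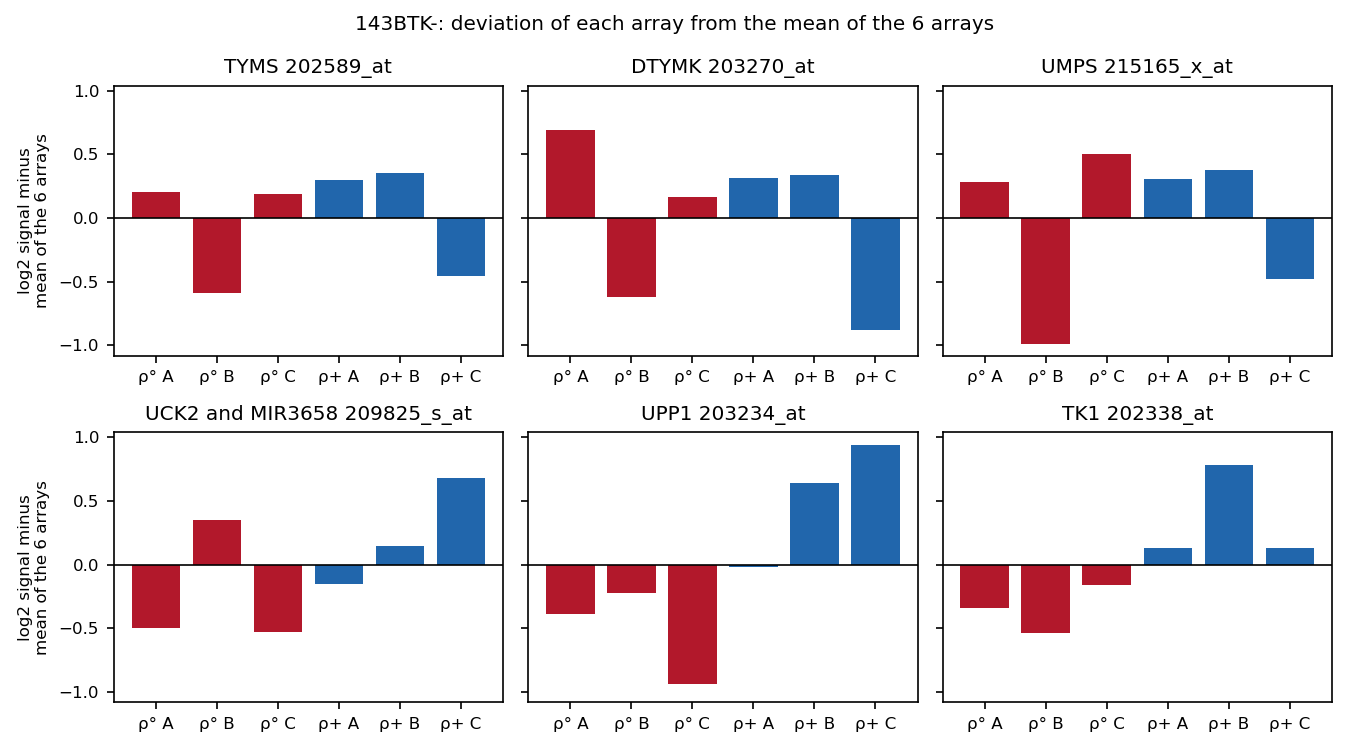
Deviation of the log2 signal of each 143BTK- array from the mean of the 6 arrays, for 6 genes, with ρ° arrays A to C in red and ρ+ arrays A to C in blue. The ρ° array B and the ρ+ array C are low for TYMS, DTYMK and UMPS (215165_x_at) and the highest of their group for the probe set of UCK2, while for UPP1 and TK1 the ρ° arrays all lie below the ρ+ arrays.

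In 143BTK-, TYMS, DTYMK and UMPS thus shared the low arrays ρ° B (1967.5, 192.2 and 205.3) and ρ+ C (2163.3, 161.2 and 195.7), which belong to different states. Leaving out both arrays gave changes of -0.13 for TYMS, 0.10 for DTYMK and 0.26 for UMPS 202706_s_at, against -0.13, 0.15 and 0.19 with all arrays. UPP1 had a change of -0.97 (adjusted p = 0.424) and TK1 of -0.70 (adjusted p = 0.52) without them. What the pair of arrays has in common, labels and batch included, was not tested.

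DCK, the deoxycytidine kinase, was dim and had lower means in ρ° cells of both lines without passing the test. It read 18.4, 24.2 and 35.8 in A549 ρ° cells, against 31.5, 50.3 and 73.7 in A549 ρ+ cells. The A549 groups overlapped by ρ° array C and ρ+ array A, with a change of -0.96 (SE 0.40, unadjusted p = 0.0373, adjusted p = 0.155 with limma). In 143BTK- it read 31.7, 30.4 and 44.1 in ρ° cells, against 55.1, 53 and 64.2 in ρ+ cells, with no overlap and a change of -0.71 (SE 0.28, unadjusted p = 0.0318, adjusted p = 0.572 with limma). The mean change of -0.84 (SE 0.25, 1.78-fold lower) was short of the threshold (adjusted p = 0.0794, exact permutation p = 0.01). It passed only without A549 ρ+ array A, narrowly (-0.99, adjusted p = 0.0498). DCK lies on chromosome 4, where the median change of the 414 probe sets kept in 143BTK- was -0.23, against 0.09 for the 380 kept in A549. After centring on the chromosome, the change of DCK was -0.41 in 143BTK- (adjusted p = 0.797) and -0.997 in A549 (adjusted p = 0.121).

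TK2, the mitochondrial thymidine kinase, showed no difference past the threshold on any probe set. Its brightest probe set in A549 over both groups, 204276_at, read 72.6, 80.3 and 49.6 in ρ° cells, against 89.7, 92.7 and 48.2 in ρ+ cells, with array C low in both. The changes of 204227_s_at, 204276_at and 204277_s_at in A549 were -0.26, -0.16 and -0.41 (adjusted p = 0.589, 0.796 and 0.659). In 143BTK- 204227_s_at read 36.8, 34.3 and 60.1 in ρ° cells, against 42.2, 35.6 and 33.8 in ρ+ cells (change 0.19, adjusted p = 0.897), and 204276_at changed by -0.11 (adjusted p = 0.949). TK2 also lies on chromosome 16. After centring on it, the A549 changes of the first 2 probe sets were 0.016 and 0.12, so that their direction turned.

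Across the members, all 3 ρ° arrays lay below all 3 ρ+ arrays for 5 of the 13 tested probe sets in A549, which were TK1, UPP1, DTYMK, UMPS 202706_s_at and DHODH 213632_at, against 16.1% of all probe sets. In 143BTK- this held for 4 of the 13, which were TK1, UPP1, DCK and DHODH 213631_x_at, against 7.47% of all probe sets. No member probe set had all ρ° arrays above the ρ+ arrays in either line, but the share of all probe sets for which that held is not given here. In bulk RNA, fewer cells that express a gene and less RNA in each cell cannot be told apart.

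The other genes that supply deoxynucleotides moved in both directions in A549. Of 11 tested, 1 fell and 1 rose, which is near the 5.17% lower and 5.59% higher of all probe sets, and the median change was -0.51. TXN, the thioredoxin that reduces ribonucleotide reductase among other proteins, averaged 1440 in A549 ρ° and 3300 in A549 ρ+ cells (change -1.19, adjusted p = 0.00106). DCTD, which deaminates dCMP to dUMP for TYMS, averaged 400 in ρ° and 209 in ρ+ cells, and was 1.91-fold higher (adjusted p = 0.0125), a call lost without ρ° array A (0.0731) or ρ+ array B (0.0543). Its probe sets 201571_s_at (0.70, adjusted p = 0.127) and 201572_x_at (0.52, adjusted p = 0.132) were higher without passing. In 143BTK- DCTD changed the other way, by -0.32 on 210137_s_at, -0.53 on 201571_s_at and -0.34 on 201572_x_at (adjusted p = 0.58 to 0.821 in limma). SHMT2, the mitochondrial serine hydroxymethyltransferase, did not pass on its brightest probe set 214096_s_at (0.08, adjusted p = 0.849), but on 214437_s_at it averaged 129 in ρ° and 60.8 in ρ+ cells (change 1.04, adjusted p = 0.0376 with limma), a call kept in 2 of 6 fits without 1 array. In 143BTK- 0 of 11 passed, with 3 lower and 1 higher at an unadjusted p under 0.05, where 4.6% of all probe sets were lower. In the mean change 2 of 11 fell, where 1.72% of all probe sets passed lower in ρ° cells. These were TXN (-0.78, adjusted p = 0.0103) and RRM2, the S phase subunit of ribonucleotide reductase (-0.93, adjusted p = 0.0497). SHMT2 rose in the mean change on 214437_s_at (0.86, adjusted p = 0.018). The RRM2 call was lost in 11 of 12 fits without 1 array (adjusted p up to 0.128), that of SHMT2 in 2 of 12 and that of TXN in 0 of 12.

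Of 5 tested genes of pyrimidine breakdown and nucleotide hydrolysis in A549, 2 fell and 0 rose, against 5.17% lower and 5.59% higher of all probe sets. NT5E of this list went the other way without passing, and averaged 96.6 in A549 ρ° and 61.4 in A549 ρ+ cells (change 0.64, unadjusted p = 0.0218, adjusted p = 0.114 with limma). In 143BTK- the change of NT5E was 0.62 (adjusted p = 0.778). CDA, the cytidine deaminase that turns cytidine to uridine, averaged 42 in ρ° and 123 in ρ+ cells (change -1.55, 2.94-fold lower, adjusted p = 0.00383) and passed in all 6 fits without 1 array. NT5C2, a nucleotidase that acts mainly on purine monophosphates, averaged 84.4 in ρ° and 156 in ρ+ cells (change -0.89, adjusted p = 0.0396). This call was lost without ρ° array A (0.136), ρ° array B (0.131) or ρ+ array B (0.163), with no filter (0.0618) and without the intensity trend (0.07). In 143BTK- NT5C2 averaged 80.7 in ρ° and 52.6 in ρ+ cells (change 0.63, unadjusted p = 0.0621, adjusted p = 0.621 with limma), and the difference between the lines was -1.52 (adjusted p = 0.0554). In 143BTK- CDA was too dim to be tested, and 0 of 6 genes passed or had an unadjusted p under 0.05. Of the 8 tested genes of UTP and CTP supply 0 passed in either line. CTPS1, the CTP synthetase, averaged 362 in A549 ρ° and 489 in A549 ρ+ cells (change -0.44, adjusted p = 0.148), and 239 in 143BTK- ρ° against 524 in 143BTK- ρ+ cells (change -1.06, unadjusted p = 0.0252, adjusted p = 0.564 with limma).

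Since TK1, TYMS, DTYMK and RRM2 are genes of proliferating cells, a list of 30 genes of S phase was measured beside them. In A549, 6 of 27 tested fell, against 5.17% of all probe sets, and 0 rose, all 27 changes were below 0, and their median was -0.82. The 6 were PCNA, the clamp of DNA polymerase (-1.49), the helicase genes MCM7 (-1.13) and GINS2 (-2.01), RFC3 of the clamp loader (-1.15), cyclin CCNE1 (-1.34) and the chromatin assembly gene CHAF1A (-1.12), with adjusted p of 0.0127 to 0.0381. The helicase gene MCM4 passed on its dimmer probe sets 212141_at (-1.72, adjusted p = 0.0252) and 222037_at (-1.40, adjusted p = 0.0301). It did not pass on the brightest (-1.03, adjusted p = 0.132) or on the dim 212142_at (-0.50, adjusted p = 0.524). Second probe sets of called genes were lower without passing for MCM7 (210983_s_at, -0.95, adjusted p = 0.075) and RFC3 (204128_s_at, -0.58, adjusted p = 0.356). The same held for CHAF1A on 203975_s_at (-0.76, adjusted p = 0.265) and 203976_s_at (-0.93, adjusted p = 0.114). All 6 calls were lost without ρ° array A (adjusted p = 0.0652 to 0.144) and without ρ° array B (0.0541 to 0.139), as were 5 of the 6 without ρ+ array B (0.0659 to 0.109), 3 without ρ+ array A (0.0514 to 0.08) and that of MCM7 without ρ+ array C (0.0635). MCM7 lies on chromosome 7 and GINS2 on chromosome 16, and after centring on the chromosome MCM7 did not pass (-0.72, adjusted p = 0.158). Without the intensity trend the mean change had 0 S phase genes that passed and A549 had 1, and without ρ° array C 11 passed in A549. In 143BTK- 0 of 29 passed in limma, 5 were lower at an unadjusted p under 0.05, against 4.6% of all probe sets, 1 was higher, and the median was -0.18. PCNA averaged 258 in 143BTK- ρ° against 494 in 143BTK- ρ+ cells (change -1.0, adjusted p = 0.564), and it fell in the mean change (-1.25, adjusted p = 0.0216), a call lost in 5 of 12 fits without 1 array (adjusted p up to 0.0683). The part of S phase genes in the changes of the members was not tested.

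**Figure D4:**
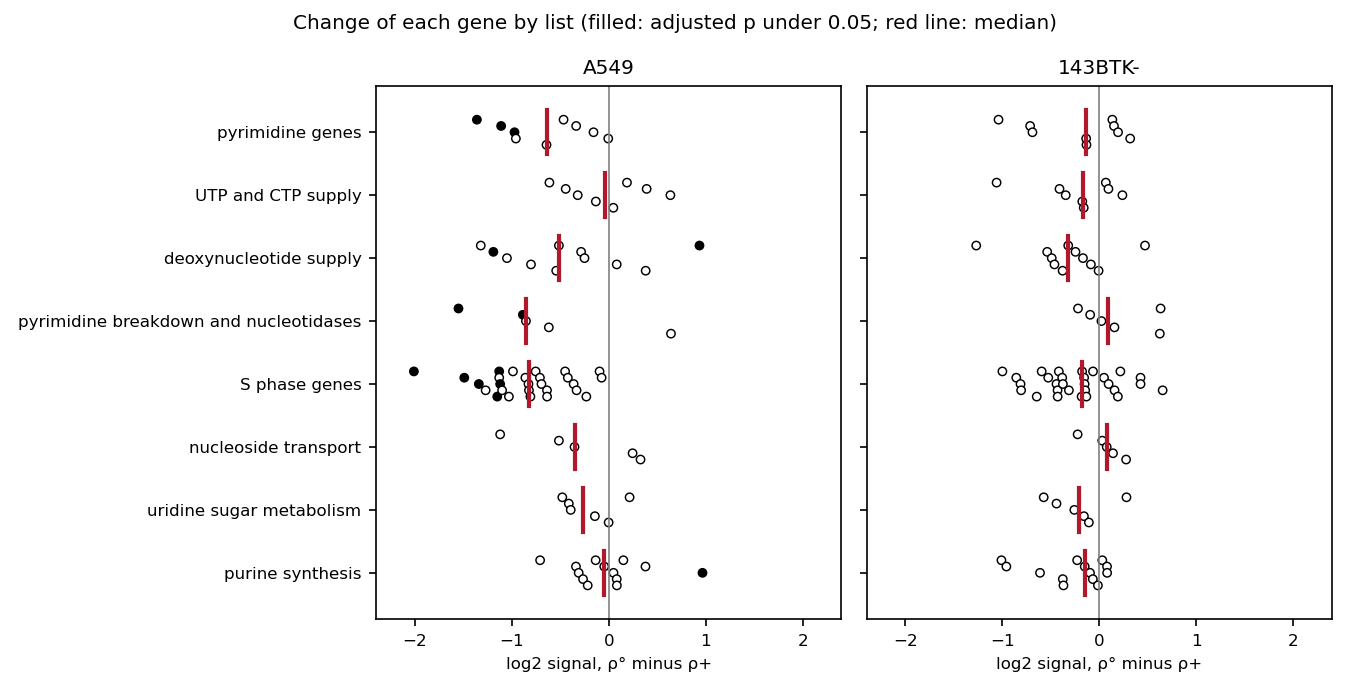
Change in log2 signal, ρ° minus ρ+, of each tested gene by list in A549 (left) and 143BTK- (right), with 1 probe set for a gene, filled points at an adjusted p under 0.05 and the median as a red line. The median was -0.64 in A549 and -0.13 in 143BTK- for the pyrimidine genes, and -0.82 in A549 and -0.18 in 143BTK- for the S phase genes.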

How the data were processed

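RNA of 12 samples (4 groups of 3) was read on HG-U133A arrays. The intensity values are those the authors deposited: MAS5 signals on a linear scale, quantile-normalized by the authors over the 6 arrays of each line. The genome build of the array's design is not given in the sources used here. All 12 arrays were used, and groups were taken from the labels. The number of arrays limits the precision.

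Log2 signals, with no offset, were compared with limma 3.58.1 in R 4.3.3 (lmFit, eBayes with an intensity trend, two-sided, Benjamini-Hochberg). The study's own error model was fitted on arrays that were not used here, so limma took its place. Ranked by mean log2 signal, the top 59% of probe sets in A549 (lowest mean signal 18.9) and 63% in 143BTK- (12.5) were tested, in place of a filter on detection calls. The residual degrees of freedom were 4 for 1 line and 8 for all 12 arrays. Exact permutation p-values are two-sided over 400 arrangements of the states within lines, the smallest being 0.005, and 0.1 in 1 line. The members and gene lists were chosen with earlier results of these data known. The text names all members with each tested probe set, and of the other lists those genes that passed, with some markers added and second probe sets where they passed. For DCTD, MCM4, MCM7, RFC3 and CHAF1A, second probe sets that did not pass are named too. CTPS1, NT5E and SLC29A3, and PAICS and PPAT with their second probe sets, were chosen after their values were seen. In lists a gene counts once, by its brightest kept probe set. Gene names came from the platform annotation, where 19071 have 1 gene, 1043 several and 2169 none, and 19059 of the 19071 matched RefSeq (GRCh38.p14). The fits were tested on simulated data. Alternatives were other normalizations, 16 or 64 added before log2, other filters, no intensity trend, a replicate block, chromosome centring and arrays left out. Figures were drawn with matplotlib 3.10.9.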

Additional observations from a re-analysis of the deposited data

How the results depend on the processing

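Without 1 array in turn, the number of member probe sets that passed was 1 to 4 in A549 and 1 to 2 in the mean change, and the share of all probe sets that passed was 3.23 to 14.6% in A549, 0.903 to 4.51% in the mean change and 0.501 to 2.56% in the difference between the lines. With no intensity trend 5.83% passed in A549, 1.9% in the mean change and 1.05% in the difference, and with each chromosome centred 2.43% passed in the mean change (296 probe sets). With a mean signal of at least 100, 1 member passed in the mean change. The replicate letter as a block gave 1 probe set (0.00712%) in 143BTK- and 4 member probe sets in A549, where TYMS passed (adjusted p = 0.0376), while NT5C2 (0.0507) and IMPDH2 (0.0678) did not. It gave 10 S phase genes in A549 and 4 in the mean change, against 1 and 0 with no intensity trend. Deviations of same-lettered arrays correlated at r = 0.0521 to 0.104 in A549, above the -0.103 to 0.02 of other pairs, and at -0.105 to 0.357 in 143BTK-, against -0.467 to 0.386. In A549 each array thus correlated best with its own letter, a hint from the data, but not in 143BTK-, and the arrays were taken as sharing only a letter.

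Changes that did not pass turned in sign as follows. With each chromosome centred, TK2 became 0.016 and 0.12, DHODH 213631_x_at 0.20 and CAD 0.085 in A549, and the UPP1 difference between lines 0.45. With both ρ+ C arrays left out, DHODH 213631_x_at became 0.10 and CAD 0.31 in A549, and UMPS 202706_s_at became -0.078 and DTYMK -0.25 in 143BTK-. Without the 143BTK- ρ+ C and ρ° B arrays UMPS 215165_x_at became 0.050 there, and with 64 added the UPP1 difference became 0.088. Without 1 array, the ranges that crossed 0 were -0.24 to 0.31 for CAD, -0.34 to 0.10 for DHODH 213631_x_at, -0.46 to 0.050 for TK2 204276_at and -0.79 to 0.046 for TK2 204277_s_at in A549. In 143BTK- they were -0.25 to 0.50 for DTYMK, -0.060 to 0.34 for TK2 204227_s_at, -0.39 to 0.13 for TYMS, -0.078 to 0.53 for UMPS 202706_s_at, -0.53 to 0.045 for UMPS 202707_at and -0.42 to 0.32 for UMPS 215165_x_at. The UPP1 difference ran from -0.28 to 0.20. The cause was not tested. With 3 arrays a group, signals near the lowest kept (18.9 in A549 and 12.5 in 143BTK-), such as those of DCK and DHODH 213631_x_at, limit what can be seen.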

Other observations

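Outside the pyrimidine routes, purine synthesis had 1 gene of 13 that rose and 0 that fell in A549. This is near the 5.59% higher and 5.17% lower of all probe sets. The gene that rose was IMPDH2, the first enzyme of the branch to GMP, which averaged 1560 in ρ° and 821 in ρ+ cells (change 0.97, 1.95-fold higher, adjusted p = 0.0439 with limma). The call was lost without A549 ρ° array A (adjusted p = 0.173), ρ° array B (0.132), ρ+ array A (0.118) or ρ+ array B (0.145). It was also lost with no filter (0.0753), without the intensity trend (0.115) and with each chromosome centred (0.0926). In 143BTK- IMPDH2 averaged 1720 in ρ° and 1900 in ρ+ cells (change -0.15, adjusted p = 0.825), and 0 of 13 purine genes passed. PAICS and PPAT, of purine synthesis, averaged 716 and 142 in ρ° and 1090 and 276 in ρ+ cells of 143BTK-. Their unadjusted p with limma was 0.00387 and 0.00594, and neither passed after adjustment (adjusted p = 0.39 and 0.438). On their second probe sets the changes in 143BTK- were -0.43 for PAICS 201014_s_at (unadjusted p = 0.0677, adjusted p = 0.63) and -1.15 for PPAT 209434_s_at (unadjusted p = 0.00216, adjusted p = 0.364).

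Uridine also carries sugars as UDP-sugars. Of 6 tested genes of UDP-sugar synthesis, counted by their brightest probe sets, 0 passed in either line. GFPT1, which begins the hexosamine route to UDP-N-acetylglucosamine, fell in A549 on its other probe set 202722_s_at, which averaged 108 in ρ° and 327 in ρ+ cells (change -1.61, SE 0.24, adjusted p = 0.00332 with limma), and this passed in all 6 fits without 1 array. The brighter 202721_s_at changed by -0.48 in A549 (adjusted p = 0.202). In 143BTK- the changes were -0.44 on 202722_s_at (adjusted p = 0.731) and -0.26 on 202721_s_at (adjusted p = 0.851). The mean change of 202722_s_at was -1.03 (SE 0.20, adjusted p = 0.0145 with limma). Of the 5 tested transporters of nucleosides 0 passed in either line. SLC29A3, an equilibrative nucleoside transporter of lysosomes, averaged 49.4 in ρ° and 105 in ρ+ cells of A549 (change -1.12, adjusted p = 0.0676).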
